A study of Mus musculus with 6 samples.

Results

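The cells described here are the control cells of a knockdown study, mouse neural retinal progenitor cells (mNRPCs) that according to the series' design text received a control siRNA. They were examined on their own, gene by gene, as a baseline transcriptome. They are a line established by the study's laboratory from adult mouse neural retina, and were kept on dishes coated with Matrigel, a basement membrane extract, in DMEM/F12 medium with N2 and B27 supplements, basic fibroblast growth factor (bFGF), CHIR99021, an inhibitor of the kinase GSK3, and 2-mercaptoethanol. Poly(A) RNA was sequenced about 48 h after transfection with a Lipofectamine reagent. The group holds the 3 of the 6 libraries of the series that are labelled as control, named control replicates 1, 2 and 3, and the other libraries, from cells with an siRNA against Ifitm3, were not used. Genotype, strain, sex, age in days and passage were not given, and nothing says that the 3 libraries came from separate cultures, so their spread may be technical in part. The study lists a scramble siRNA and also describes a blank control, while its methods call the sequenced control only mNRPCs. The 2 strands of that scramble siRNA, 19 nt each without their dTdT ends, are shown as the siRNA that the study lists as its scramble control, although no source says outright that these libraries received it. Bases 2 to 8 of each strand, the seed that pairs first with a target, are in capitals.
scramble siRNA, forward strand: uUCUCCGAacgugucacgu
scramble siRNA, reverse strand: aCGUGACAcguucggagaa

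Retinal progenitor cells are the dividing cells that give rise to the neurons and Müller glia of the retina. In the embryonic mouse optic cup they are known by a set of transcription factors that includes Rax, Pax6, Six3, Six6, Lhx2 and Sox2, while Crx and the proneural factors mark cells that leave the cycle. In culture, bFGF signals through FGF receptors and the ERK kinases, and blocking GSK3 stabilises beta-catenin, the effector of WNT signalling.

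Levels are FPKM, that is, counts of sequenced fragments divided by transcript length and by library size, so that genes can be set side by side per length. A gene was counted as detected where its FPKM averaged 1 or more, and values given as 3 numbers are those of control replicates 1, 2 and 3 in that order. Of 55401 gene identifiers, 12078 were detected (21.8%), and 11362 reached 1 FPKM in every library. Another 31321 identifiers (56.5%) were listed at 0 in all 3. By annotation class, 10410 of 21897 protein-coding genes were detected (47.5%), 1081 of 9936 processed pseudogenes (10.9%) and 105 of 5614 lincRNAs (1.87%). The summed FPKM was 352245, 344706 and 360247, and 12037, 12002 and 11966 identifiers reached 1 FPKM in the single libraries. The number of reads behind each library is unknown.

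Control replicate 2 stood apart from the other two. Across the 12078 detected genes, Pearson's r of log2(FPKM + 0.1) was 0.966 between replicates 1 and 3, 0.943 between 1 and 2, and 0.940 between 2 and 3, a description across genes, which are not independent. On the same scale, 516 of these genes differed at least 2-fold between replicates 1 and 3, against 880 between 1 and 2 and 941 between 2 and 3. The number of genes detected was 12033 without replicate 2. Results that rest on this library are given with its values beside those of the others.

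The detected genes had a median of 6.89 FPKM (quartiles 3.06 and 17.1), 4706 were at 10 FPKM or more, 465 at 100 or more and 34 at 1000 or more. The 10 highest identifiers held 13.4% ± 0.166 of the summed FPKM, the 100 highest 38.4% ± 0.308 and the 1000 highest 67.9% ± 0.518 (SD, n = 3). At the other end, Gm20300, Gm19801 and Rpl17-ps7 lay just inside the threshold at 1 FPKM and Rab3b, Rab36 and Fbn1 just outside it at 0.997 FPKM. The curve of levels by rank places the genes discussed below along this range.

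**Figure D1:**
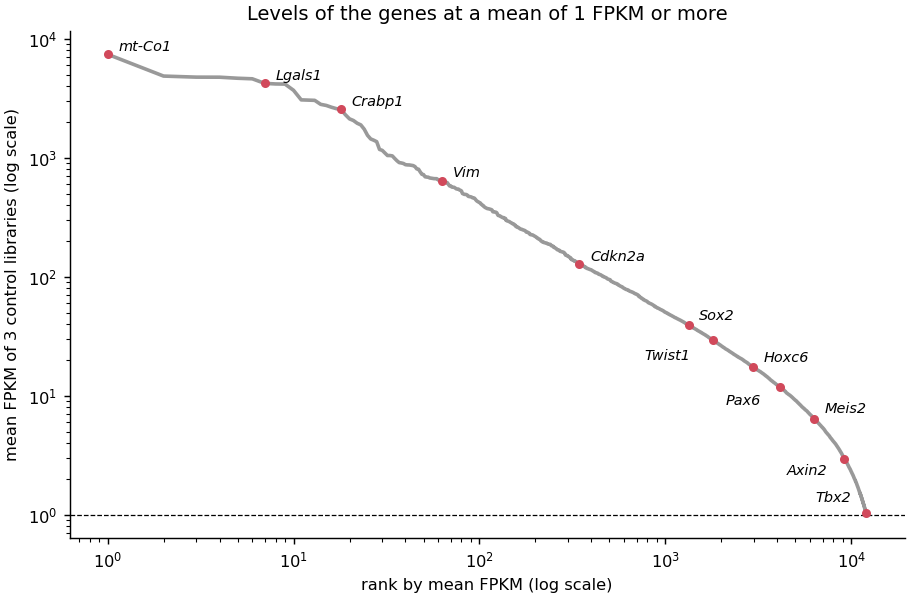
Mean FPKM of the 3 control libraries (y axis, log scale) against rank (x axis, log scale) for the 12078 detected genes, with 12 named genes as red points and a dashed line at 1 FPKM. The retinal genes Sox2 (39.2 FPKM) and Pax6 (11.9 FPKM) lie at lower levels than the cytoskeletal gene Vim (639.6 FPKM) and the lectin gene Lgals1 (4214 FPKM).

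Apart from mitochondrial transcripts, many of the highest genes coded for small cytosolic, secreted or membrane proteins. Lgals1 (chr15:78926725-78930465, GENCODE annotation of GRCm38), which encodes galectin-1, a secreted lectin that binds beta-galactosides, was the highest nuclear protein-coding gene, at 3625, 4653 and 4363 FPKM. It made up 92.8% ± 1.57 of the summed FPKM of 8 galectin genes. Its level was lowest in replicate 1 and the libraries lay within 1.5-fold of each other. Crabp1, the cellular retinoic acid-binding protein, was at 2691, 2438 and 2505 FPKM, an even level in the 3 libraries (2544 ± 131, SD, n = 3). Of 10 S100 genes, which encode calcium-binding proteins, 7 were detected, with S100a11 at 2299 ± 387, S100a4 at 2054 ± 691, S100a6 at 692 ± 57.1 and S100a10 at 667 ± 249.6 FPKM.

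Spp1 encodes osteopontin, a secreted phosphoprotein of the matrix. It was at 2132, 5486 and 1524 FPKM. Replicate 2 was the high library, above the other two by more than 2-fold. B2m, the light chain of major histocompatibility class I, was at 2548, 3361 and 2057 FPKM and again highest in replicate 2. Eef1a1, the elongation factor that brings aminoacyl-tRNA to the ribosome, was at 3173, 2369.7 and 3645 FPKM, with replicate 2 the low library. Ftl1, the ferritin light chain, was at 2164, 1118 and 1929 FPKM, and Rplp1, a protein of the ribosomal stalk, at 1999, 1392 and 2452 FPKM. Both were lowest in replicate 2.

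Ifitm3, the target of the knockdown in the rest of the study, encodes a membrane protein that interferon induces and that hinders viruses on their way into the cell. In these control cells it (chr7:141009586-141010770) ranked 17 among all identifiers, at 3121, 2120.2 and 2509 FPKM (2584 ± 505, SD, n = 3). Of 7 members of its family, the detected ones were Ifitm3 and Ifitm2. Ifitm2 was at 820.0, 248 and 629.9 FPKM and lowest in replicate 2. Ifitm1 (1.49, 0.37 and 0.55 FPKM), Ifitm5 (1.28, 0.37 and 0.67 FPKM), Ifitm6 (0.42, 0.3 and 0.46 FPKM) and Ifitm10 (0.51, 1.51 and 0.48 FPKM) stayed under a mean of 1 FPKM, and Ifitm7 was listed at 0 in each library.

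The mitochondrial genome contributed 11.02% ± 0.405 of the summed FPKM (SD, n = 3) through 37 genes, of which 35 were detected. Its highest gene, mt-Co1, a subunit of cytochrome c oxidase, was at 7245, 7704 and 7247 FPKM and was the highest identifier of all. The other subunit genes of the respiratory chain and ATP synthase mt-Co2 (4749 FPKM), mt-Co3 (3034 FPKM), mt-Atp6 (4654 FPKM), mt-Atp8 (4168 FPKM), mt-Cytb (3686 FPKM), mt-Nd1 (2808 FPKM) and mt-Nd2 (1888 FPKM) were also among the 25 highest. The 5 unprocessed pseudogenes of chromosome 1 among the 40 highest, 5.11% ± 0.0615 of the sum, are copies of mitochondrial genes. The transcripts of Gm10925 (4754 FPKM), Gm28661 (4604 FPKM) and Gm28437 (2749.5 FPKM) share 100% of their 31-base words with mt-Atp6, mt-Co2 and mt-Co3, those of Gm10222 share 100% with mt-Nd4l, and those of Gm29216 (4853 FPKM) share 97.2% with mt-Co1. How reads were divided between such copies cannot be seen from FPKM, so these levels are uncertain.

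The other 3 predicted identifiers among the 25 highest are short microRNA annotations lying on the same strand inside abundant genes. Gm22133 spans 109 bases within Ftl1 (4155 FPKM), Gm27597 spans 80 bases within Rpl19 (2121 FPKM), and Gm26377 spans 108 bases within Eef1a1 (1542 FPKM). Reads of the host and of the nested annotation cannot be told apart here. Cytosolic ribosomal protein genes, 88 of 93 symbols detected, took 8.39% ± 1.33 of the summed FPKM (SD, n = 3). Their share was 8.45%, 7.02% and 9.69%, lowest in replicate 2 and highest in replicate 3.

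Promoter sequences from RefSeq (GRCm38.p6), 250 bases before to 50 bases after each annotated start, were read for the genes found by symbol in both tables, 20969 genes with 25634 promoters. GGGCGG, the core of the GC box, was searched on both strands. It stood in 63.7% of the 124 promoters of the 100 highest genes and in 64.7% of those of detected genes, against 14.7% of the promoters of genes listed at 0 in all 3 libraries and 41.8% of all. TATAAA, the core of the TATA box, on either strand, showed another order, with 15.3% for the 100 highest and 6.84% for detected genes, against 20.6% for genes listed at 0 and 12.7% of all. CCAAT on either strand was in 37.9% of the promoters of the 100 highest genes and in 37.8% of all. The windows with a TATAAA just before the start, on the strand that reads like the transcript, are shown for the 4 highest such genes. They show where the letters lie (TATAAA in capitals).
S100a4 (chr3:90603727-90603756, plus strand): ggcctggcagggTATAAAtaggtcagattg
H2-D1 (chr17:35263056-35263085, plus strand): gcggacgctggtTATAAAgtccacgcaacc
Vim (chr2:13574267-13574296, plus strand): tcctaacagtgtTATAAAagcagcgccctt
Ppia (chr11:6415826-6415855, plus strand): gcccgaaccgggTATAAAggaagccgcggc
S100a4 was at 2054 FPKM, H2-D1, a class I histocompatibility heavy chain, at 671 FPKM, Vim at 639.6 FPKM and Ppia, the peptidyl-prolyl isomerase cyclophilin A, at 324 FPKM. A match is a description of the letters in the window and not of a bound site.

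A transcript start of C followed by 4 pyrimidines, the form of the 5′ terminal oligopyrimidine tract of translation genes, was found at 21.3% of the 75 promoters of detected ribosomal protein genes. The match was asked exactly at the annotated start, so a tract next to a start annotated some bases off is missed. The shares therefore do not count the genes that have such a tract. It was found at 8.06% of the promoters of the 100 highest genes, against 2.39% of all. With ribosomal protein genes left out, the 100 highest genes had it at 2.31% of their promoters. The starts of the 4 highest genes with such a start are shown, with the run of pyrimidines from the annotated start in capitals.
Tuba1a (chr15:98953492-98953521, minus strand): tcgcgctgtaagaagcaacaCCTCCTCCTC
Rps6 (chr4:86857358-86857387, minus strand): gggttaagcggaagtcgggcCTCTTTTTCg
Rpl28 (chr7:4792945-4792974, plus strand): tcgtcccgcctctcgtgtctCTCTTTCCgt
Rpl38 (chr11:114668560-114668589, plus strand): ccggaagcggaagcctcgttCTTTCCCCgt
Tuba1a, an alpha tubulin, was at 859 FPKM, and the ribosomal protein genes Rps6, Rpl28 and Rpl38 were at 633, 439 and 315 FPKM.

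Of 14 transcription factors that mark retinal progenitors, 7 were detected (50%, with a median log2(mean FPKM + 0.1) of 0.48), against 21.8% of all identifiers, 47.5% of protein-coding genes and a median of -3.32 over all identifiers. A share near that of protein-coding genes, here and in the lists that follow, is no result about the list. Where a count below stands without a share, the 47.5% of protein-coding genes is the one to set beside it. The -3.32 is the floor of the scale, log2 of the added 0.1, because the median identifier was at 0 FPKM. A list median above that floor is likewise no result, here and below. Sox2 (chr3:34650405-34652461), needed for the maintenance of neural progenitors, was the highest, at 40.8, 44.6 and 32.1 FPKM, with the 3 libraries within 1.5-fold of each other. Pax6 (chr2:105668900-105697364), the eye field factor, was at 13.7, 10.8 and 11.1 FPKM, and Six3, another factor of the anterior neural plate and eye field, at 11.9, 10.9 and 11.1 FPKM. Both were even over the libraries. Meis2 (6.81, 7.11 and 5.36 FPKM) and Meis1 (3.06, 2.5 and 2.23 FPKM), TALE homeobox factors upstream of Pax6 in the eye, were also detected.

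Sox9 and Hes1 were detected with a wide spread. Sox9, a factor of progenitors and Müller glia, was at 7.01, 29.97 and 11.8 FPKM, and Hes1, an effector of NOTCH, at 5.6, 29.6 and 7.02 FPKM. In both, replicate 2 was the high library, and without it both stayed above 5 FPKM. Lhx2, a LIM homeobox factor of the optic vesicle, was under the threshold at 0.89, 0.6 and 0.36 FPKM. Nr2e1, an orphan nuclear receptor of neural stem cells, was at 0, 0.01 and 0.01 FPKM, while Rax, Six6, Otx2 and Hes5 were listed at 0 in each library. Of the factors named above for the embryonic optic cup, Sox2, Pax6 and Six3 were detected and Rax, Six6 and Lhx2 were not. The cells are a line from adult retina, so these factors alone do not settle how well the label of a retinal progenitor cell fits. In bulk RNA, fewer cells of a type and less RNA per cell cannot be told apart.

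**Figure D2:**
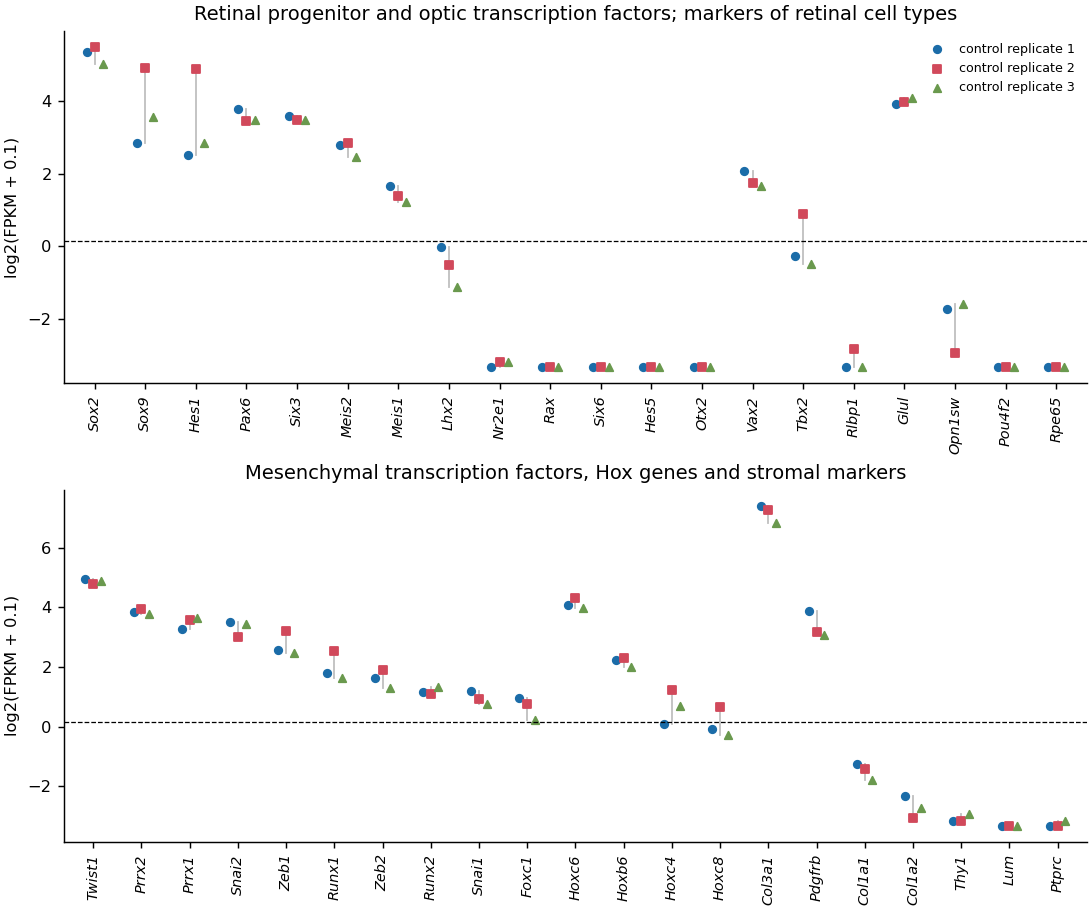
log2(FPKM + 0.1) in the 3 control libraries (one point per library, grey line from lowest to highest, dashed line at 1 FPKM). Top, 13 of the retinal progenitor factors, the regional optic factors Vax2 and Tbx2 and markers of retinal cell types; bottom, the detected mesenchymal transcription factors and Hox genes with stromal markers and the leukocyte gene Ptprc. Sox2, Pax6 and Six3 lie above the line in every library, as do Twist1, Prrx1, Prrx2 and Hoxc6, while Rax, Six6, Otx2, Lum and Pou4f2 lie at the floor.

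Of 8 regional factors of the optic cup and stalk, 3 were detected. Vax2, a ventral retinal factor, was at 4.09, 3.23 and 3.05 FPKM and above the threshold in every library. Tbx2, a dorsal factor, averaged 1.03 FPKM through replicate 2 (0.73, 1.76 and 0.61 FPKM). The dorsal factor Tbx5 and the related Tbx3 were listed at 0. Among 12 forebrain and midbrain factors 3 were detected, with Six3 and with Emx2, a dorsal forebrain homeobox gene, at 11.4, 14.4 and 13.8 FPKM. En2, Gbx2 and the ventral forebrain factor Nkx2-1 were listed at 0.

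Genes common to neural stem and progenitor cells were detected in 8 of 14 cases (57.1%, median log2(mean FPKM + 0.1) of 1.73, against -3.32 over all identifiers). Vim, the intermediate filament vimentin, was at 589, 612 and 718 FPKM, and Cd24a, a surface glycoprotein, at 98.8, 59.6 and 76.3 FPKM. Nes, the filament nestin, was at 9.57, 16.6 and 12.1 FPKM, and Msi2, an RNA-binding protein, at 9.23, 12.4 and 9.49 FPKM. Nes was well above the threshold in every library and highest in replicate 2. Sox4 (9.06 ± 3.64 FPKM), Notch1 (6.49 ± 0.751 FPKM) and Sox11 (1.57 ± 0.232 FPKM) completed the detected set with Sox2. Sox1, an early neural factor, and Prom1, which encodes the surface protein prominin-1, were at means of 0.02 and 0.00667 FPKM.

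Factors of retinal neurogenesis were nearly silent, with 1 of 14 detected (median log2(mean FPKM + 0.1) of -3.16). The detected one was Hes6, at 7.29, 4.29 and 6.76 FPKM. Insm1, an endocrine and neuronal zinc finger factor, was at 0.25, 0.28 and 0.3 FPKM, Onecut2 at 0.13, 0.12 and 0.09 FPKM and Neurod1 at 0.06, 0.21 and 0.03 FPKM, all under the threshold in every library. Atoh7, which starts ganglion cell fate, was listed at 0, 0 and 0.03 FPKM, Crx, the photoreceptor factor, at 0, 0 and 0.04 FPKM, and Neurog2, Foxn4, Neurod4, Ptf1a and Onecut1 at 0 in each library.

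Markers of differentiated retinal neurons followed the same pattern. Of 12 rod genes 1 was detected, Rom1, a disc membrane protein at 7.74, 9.77 and 7.27 FPKM. Nrl, the rod factor, averaged 0.00333 FPKM, and Gnat1, Nr2e3 and Pde6a were listed at 0. None of 8 cone genes reached 1 FPKM, and the highest was Cngb3 at 0.93, 0.21 and 0.21 FPKM. Among 8 bipolar cell genes, Prkca (1.98, 3.36 and 2.46 FPKM) and Isl1 (1.43, 2.43 and 1.48 FPKM) were detected and Vsx1, Grm6, Cabp5 and Scgn were listed at 0. Isl1 was also the 1 detected member of 10 ganglion cell genes. Nefm, a neurofilament subunit, was just under the threshold at 0.38, 0.71 and 1.62 FPKM and would pass it without replicate 1 or without replicate 2. In this list Pou4f2 and Slc17a6 were listed at 0.

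Amacrine and horizontal cell genes were detected in 3 of 12 cases. Tfap2a, a factor of amacrine cells that is also used in neural crest and ectoderm, was at 9.86, 10.2 and 10.3 FPKM. Slc6a9, a glycine transporter, was at 7.85, 6.75 and 6.33 FPKM, and Prox1, a factor of horizontal cells and other lineages, at 7.65, 5.8 and 4.58 FPKM. Each of these was above 4 FPKM in every library, whereas the transmitter genes Chat, Th and Slc32a1 were listed at 0. Of 12 general neuronal genes, Gap43 (18.9, 11.9 and 24.3 FPKM), Ncam1 (8.12, 11.2 and 8.19 FPKM), Tubb3 (9.34, 4.24 and 6.4 FPKM) and Syt1 (1.35, 1.83 and 1.38 FPKM) were detected. Rbfox3, the nuclear antigen NeuN of mature neurons, averaged 0.0233 FPKM and Dcx, doublecortin of young neurons, 0.0267 FPKM.

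Of 10 Müller glia genes 4 were detected, Dkk3 at 25.8, 118 and 17.98 FPKM, Glul, glutamine synthetase, at 15.1, 15.7 and 16.9 FPKM, Clu, clusterin, at 12.4, 11.9 and 7.13 FPKM and Apoe at 2.43, 4.21 and 2.04 FPKM. Dkk3 was high in replicate 2, whereas Glul was even. Rlbp1, the retinaldehyde-binding protein that defines mature Müller glia, averaged 0.0133 FPKM, and the channel genes Aqp4 (0.387 FPKM) and Kcnj10 (0.0633 FPKM) were under the threshold. Of 8 astrocyte genes, Aldoc, an aldolase at 61.1, 53.6 and 62.04 FPKM, and Gja1, connexin 43 at 8.83, 10.7 and 9.5 FPKM, were detected, and the defining filament Gfap was at 0.25, 0.32 and 0.7 FPKM. Of 11 genes of the retinal pigment epithelium, 1 was detected, the retinol dehydrogenase Rdh5 (5.35, 21.2 and 6.05 FPKM), and Rpe65, Lrat and Tyr were listed at 0.

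**Figure D3:**
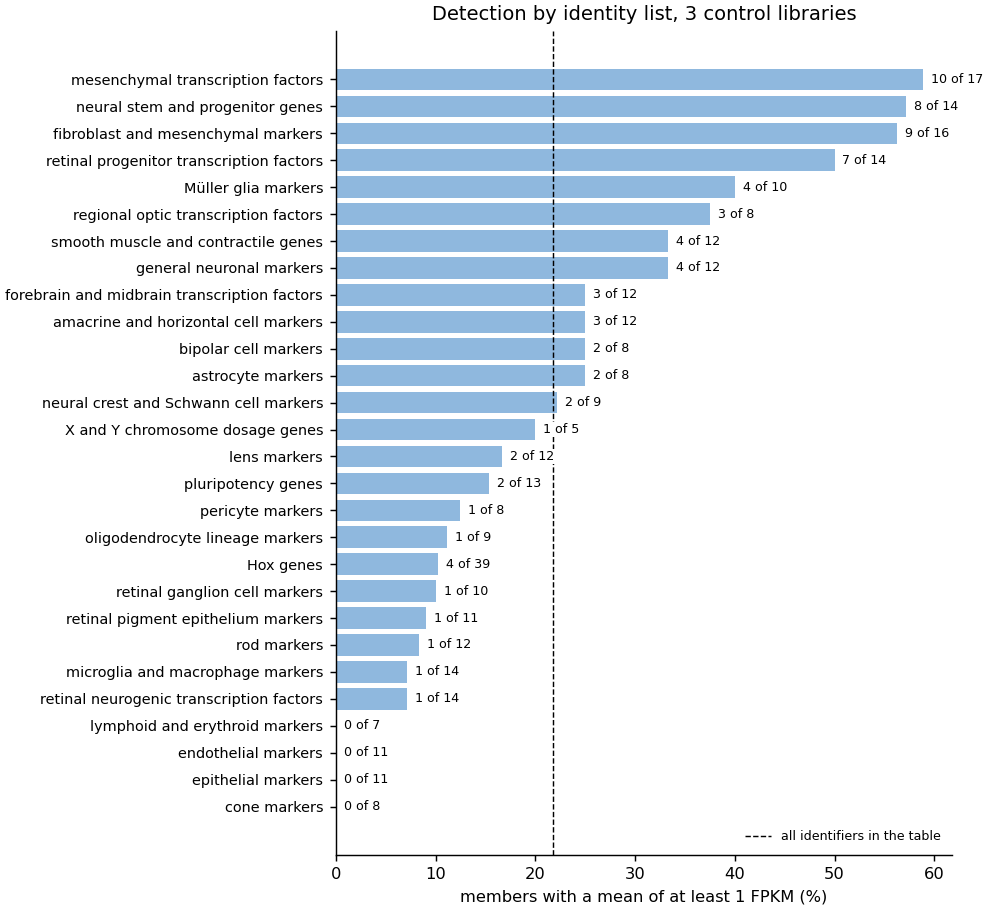
Share of the members of 28 identity lists with a mean of at least 1 FPKM in the 3 control libraries (x axis, %), with the number of detected and measured members beside each bar. The dashed line marks the share over all identifiers, 21.8%, while that of protein-coding genes was 47.5%, near which mesenchymal transcription factors (10 of 17), neural stem and progenitor genes (8 of 14) and retinal progenitor factors (7 of 14) lie, and cone, epithelial, endothelial and blood lists (0 detected) at 0.

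Mesenchymal transcription factors were detected in 10 of 17 cases (58.8%, median log2(mean FPKM + 0.1) of 0.96, against -3.32 over all identifiers). Twist1, a bHLH factor of cranial mesenchyme, was at 30.8, 27.4 and 29.6 FPKM, and the paired-related homeobox genes Prrx2 and Prrx1 at 14.3, 15.3 and 13.5 FPKM and at 9.65, 11.9 and 12.4 FPKM. Snai2, a zinc finger factor of epithelial to mesenchymal transition, was at 11.3, 7.94 and 10.7 FPKM and Zeb1 at 5.89, 9.21 and 5.43 FPKM. These 5 genes were above 5 FPKM in every library, and Twist1 differed by 1.12-fold between its highest and lowest library. The summed FPKM of the list was 85.3, 87.6 and 83.4. Foxc1, a factor of periocular mesenchyme, averaged 1.5 FPKM, and Tcf21 and Lmx1b were listed at 0.

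Fibroblast and mesenchymal structural genes were detected in 9 of 16 cases (56.3%, median log2(mean FPKM + 0.1) of 0.35). S100a4, which made up 89.02% ± 2.56 of the sum of the list, was at 1574, 2846 and 1743 FPKM. Col3a1, a fibrillar collagen, was at 168, 152 and 114 FPKM, Fbln2, the matrix protein fibulin-2, at 35.9, 92.5 and 34.3 FPKM and Pdgfrb, a receptor of pericytes and fibroblasts, at 14.4, 8.94 and 8.35 FPKM. The defining genes of most fibroblasts were low. Col1a1 averaged 0.26 FPKM, Col1a2 0.0567 FPKM and Dcn 0.307 FPKM. Thy1 averaged 0.0167 FPKM and Lum was listed at 0. Whether the detected members come from the same cells as Sox2 and Pax6 was not tested.

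Smooth muscle and contractile genes were detected in 4 of 12 cases, Tpm1 (95.8, 170.2 and 98.3 FPKM), Acta2, smooth muscle actin (18.7, 33.7 and 13.1 FPKM), Smtn (11.7, 11.5 and 12.5 FPKM) and Myl9 (3.13, 17.4 and 2.49 FPKM). Replicate 2 was the highest in these, except for Smtn, which was even. Myh11, the myosin of mature smooth muscle, averaged 0.0133 FPKM. Of 8 pericyte genes the detected one was Pdgfrb.

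Of 39 Hox genes, which pattern the hindbrain and trunk, 4 were detected (10.3%). That share was under the 47.5% of protein-coding genes and the 21.8% of all identifiers. Hoxc6 (chr15:102998257-103011881) was at 16.7, 19.8 and 15.7 FPKM, a level above Pax6 and Six3 in every library. Hoxb6 was at 4.56, 4.84 and 3.91 FPKM, Hoxc4 at 0.96, 2.22 and 1.53 FPKM and Hoxc8 at 0.85, 1.48 and 0.73 FPKM. Hoxc6 and Hoxb6 passed the threshold in every library, Hoxc4 and Hoxc8 only in some. Hoxb3 (0.877 FPKM), Hoxb4 (0.827 FPKM), Hoxb5 (0.8 FPKM) and Hoxc5 (0.557 FPKM) lay between 0.5 and 1 FPKM. The detected members belong to the Hoxb and Hoxc clusters, and all Hoxd genes except Hoxd4 (0.18 FPKM) were listed at 0.

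Markers of other lineages were mostly at the floor. None of 11 endothelial genes, 11 epithelial genes or 7 blood genes was detected, with Pecam1 at a mean of 0.01 FPKM and Epcam and Cd3e listed at 0. Of 14 microglia and macrophage genes 1 was detected, the lysosomal protein Cd68 (1.94, 1.49 and 2.68 FPKM), while Aif1, Itgam and C1qa were listed at 0. Of 9 genes of neural crest and Schwann cells, Pmp22, a myelin and growth arrest protein (85.1, 57.98 and 59.8 FPKM), and Ngfr, the low-affinity neurotrophin receptor (1.53, 10.03 and 2.54 FPKM), were detected, and Sox10 averaged 0.00333 FPKM. Of 9 oligodendrocyte lineage genes the detected one was Pdgfra (1.1, 1.68 and 0.75 FPKM), which would miss the threshold without replicate 2. Of 12 lens genes, Cryab, a small heat shock protein used in many tissues, was at 155, 174 and 149.6 FPKM and Crygs at 2.89, 0.36 and 0.52 FPKM, so that it was detected through replicate 1, while Cryba1, Mip and Cryaa were under 0.05 FPKM. Of 13 pluripotency genes, Klf2 and Klf4 were detected and Pou5f1 and Zfp42 were listed at 0. Xist, which silences an X chromosome in female cells, was at 29.1, 48.2 and 31.01 FPKM, and the Y-linked Ddx3y, Kdm5d and Uty were listed at 0.

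Genes of the cell cycle were detected throughout. All 30 S phase genes, all 26 G2 and M phase genes and all 14 G1 cyclins, CDKs and E2F and Rb family genes passed 1 FPKM. The share was 47.5% over protein-coding genes and 21.8% over all identifiers. The medians of log2(mean FPKM + 0.1) of these lists were 4.06, 5.22 and 2.90, against 2.81 for detected genes. Pcna, the sliding clamp of DNA polymerase, was at 99.3, 101 and 111 FPKM, and Rrm2, a ribonucleotide reductase subunit, at 58.1, 57.7 and 66.9 FPKM. The helicase genes Mcm4 (46.1 ± 0.927 FPKM) and Mcm6 (42.6 ± 1.69 FPKM) followed, both even over the libraries.

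Among mitotic genes, Cdc20, the activator of the anaphase-promoting complex, was at 122, 75.1 and 109 FPKM, Ccna2, cyclin A2, at 111, 89.01 and 99.8 FPKM and Plk1, a mitotic kinase, at 118, 79.98 and 101 FPKM. Each was highest in replicate 1 and lowest in replicate 2. Over the list, 20 of 26 genes were highest in replicate 1 and 16 were lowest in replicate 2, while of all 12078 detected genes 33.8% were highest in replicate 1 and 43.4% lowest in replicate 2. Mki67, the proliferation antigen Ki-67, averaged 46.2 ± 9.11 FPKM.

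Ccnd1, cyclin D1, was the highest of the G1 genes, at 182, 446 and 354 FPKM. Replicate 1 was the low library. Its partner Cdk4 was at 98.3, 97.7 and 97.4 FPKM, with a CV of 0.468%, one of the most even genes of the table. Of 7 CDK inhibitors 6 were detected. Cdkn2a (chr4:89274471-89294653), which encodes p16 and ARF, was at 126, 120.5 and 136 FPKM and ranked 345. Its neighbour Cdkn2b, encoding p15, was at 38.4, 52.4 and 42.5 FPKM, Cdkn2c at 28.1, 21.2 and 22.1 FPKM and Cdkn2d at 6.32, 31.5 and 25.1 FPKM. Cdkn1b averaged 8.59 ± 1.31 and Cdkn1a, the p21 target of p53, 5.57 ± 1.89 FPKM. Cdkn1c averaged under the threshold (1.46, 0.36 and 1.05 FPKM).

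Trp53 itself was at 41.9, 42.7 and 47.6 FPKM. Hmga1, a chromatin protein of dividing cells, was at 63.1, 114 and 93.4 FPKM and Hmga2, a chromatin protein of fetal progenitors that is known to restrain Cdkn2a in neural stem cells, at 9.63, 53.1 and 36.98 FPKM. Both were lowest in replicate 1. Lmnb1, lamin B1, was at 46.4, 37.9 and 48.3 FPKM. The telomerase gene Tert averaged 0.00333 FPKM and the cytokine Il6 0.103 FPKM.

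The cells carried 1 abundant receptor for the bFGF of their medium. Fgfr1 was at 16.1, 31.9 and 17.4 FPKM, and Fgfrl1, a receptor without a kinase domain, at 8.51, 10.3 and 6.05 FPKM. Fgfr2 (0.177 FPKM), Fgfr3 (0.05 FPKM) and Fgfr4 (0.00667 FPKM) were under the threshold. Heparan sulfate carriers, which FGF2 needs for binding, were detected in 7 of 10 cases, with Sdc4 at 109, 250.3 and 143 FPKM, Gpc4 at 102, 50.9 and 81.4 FPKM, Gpc1 at 47.04, 67.1 and 34.8 FPKM and Sdc2 at 35.99, 58.95 and 32.1 FPKM. Replicate 2 was highest in Sdc4, Gpc1 and Sdc2 and lowest in Gpc4. Of 13 FGF ligands, Fgf7 alone was detected (7.79, 4.37 and 10.1 FPKM), and Fgf2 itself averaged 0.08 FPKM.

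Feedback and target genes of ERK were detected in 16 of 17 cases (median log2(mean FPKM + 0.1) of 3.83, against -3.32 over all identifiers and 2.81 over detected genes). The transcription factor Fosl1 was at 12.6, 66.4 and 42.5 FPKM and Dusp6, the phosphatase that acts on ERK, at 7.01, 30.3 and 35.9 FPKM. Phlda1 was at 34.4, 79.3 and 60.5 FPKM and Egr1 at 9.87, 35.7 and 14.6 FPKM. Replicate 1 was the low library in 15 of the 16 detected members, Fos being the exception, while 26.1% of all detected genes were lowest there. The summed FPKM of the list was 138 in replicate 1, 382 in replicate 2 and 312 in replicate 3. Ier3 was under the threshold.

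**Figure D4:**
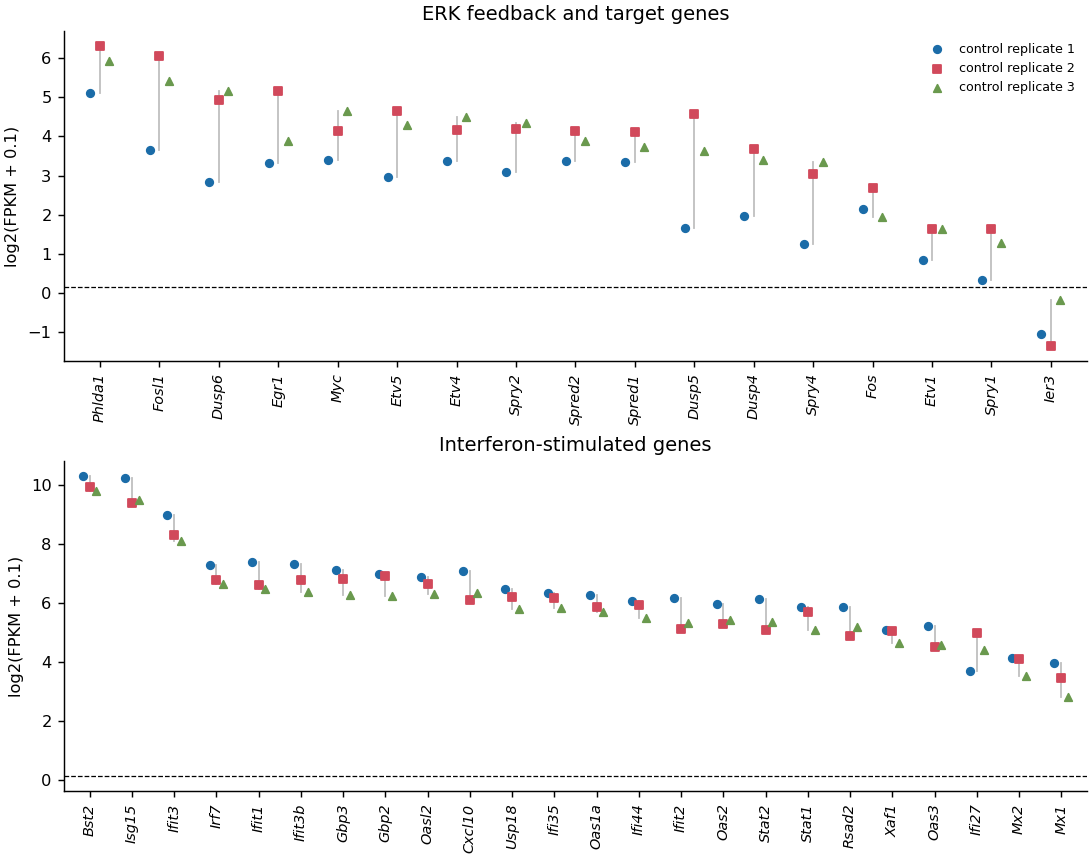
log2(FPKM + 0.1) in the 3 control libraries (one point per library, grey line from lowest to highest, dashed line at 1 FPKM) for 17 ERK feedback and target genes (top) and 24 interferon-stimulated genes (bottom). Control replicate 1 is lowest in 15 of the 16 detected ERK genes and highest in 23 of the 24 interferon-stimulated genes.

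The kinase blocked by CHIR99021 was transcribed mainly as its alpha form, Gsk3a at 64.95, 48.9 and 63.2 FPKM, with Gsk3b at 2.24, 1.58 and 1.94 FPKM. Ctnnb1, beta-catenin, was at 96.2, 99.9 and 91.2 FPKM, and the other destruction complex members Axin1 (17.04 ± 2.38 FPKM), Csnk1a1 (23.7 ± 1.41 FPKM), Apc (3.81, 3.89 and 0.36 FPKM), Apc2 (1.64 ± 0.318 FPKM) and Btrc (1.67 ± 0.0781 FPKM) were detected. Apc was at 0.36 FPKM in replicate 3 and above 3 FPKM in the others. The nuclear partners of beta-catenin were Tcf7 (7.02, 12.5 and 6.48 FPKM) and Tcf7l1 (2.44, 1.47 and 2.02 FPKM), with Tcf7l2 averaging 0.76 and Lef1 0.00333 FPKM.

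Of 16 WNT target and feedback genes 8 were detected (50%, close to the 47.5% of protein-coding genes). Their median log2(mean FPKM + 0.1) was -0.56, on a scale with its floor at -3.32. Axin2, the most general feedback target, was at 3.17, 2.68 and 3.02 FPKM, Apcdd1 at 7.93, 5.71 and 6.67 FPKM and Lgr4 at 6.3, 6.12 and 5.32 FPKM. Axin2 was even over the libraries. Sp5, Rnf43, Nkd2 and Wif1 were listed at 0 and Nkd1 averaged 0.01 FPKM. Ccnd1 and Myc (10.4, 17.5 and 25.2 FPKM), the 2 highest, were lowest in replicate 1, as were 26.1% of all detected genes. Both are known as ERK targets too, and whether that bears on their levels was not tested.

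Of 19 WNT ligands, Wnt7b (31.1, 86.9 and 48.5 FPKM), Wnt9a (6.88, 14.7 and 3.47 FPKM) and Wnt5a (5.82, 5 and 6.32 FPKM) were detected. Of 15 receptors 8 were detected, led by Ryk (40.7, 33.3 and 31.8 FPKM), Fzd6 (19.5, 18.2 and 12.1 FPKM), Fzd7 (10.4, 12.3 and 8.76 FPKM) and Fzd2 (8.33, 6.71 and 7.68 FPKM). The coreceptor Lrp6 averaged 3.77 ± 0.598 FPKM and Lrp5 0.15 FPKM. Among 11 secreted antagonists, Dkk2 (42.4, 30.4 and 40.2 FPKM) and the divergent member Dkk3 were detected, and Dkk1 averaged 0.21 FPKM.

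Of 16 receptor genes listed for the N2 and B27 supplements, 11 were detected, although not each of them binds a supplement component. Igf2r, a receptor of IGF2 and not of insulin, was at 62.3, 54.8 and 48.5 FPKM. Igf1r averaged 5.84 ± 0.345 FPKM and the insulin receptor gene Insr 2.56 ± 1.19 FPKM. Rarg, a retinoic acid receptor, was at 34.5, 49.1 and 30.9 FPKM, Tfrc, the transferrin receptor, at 18.1, 8.12 and 20.3 FPKM, and Thra, a thyroid hormone receptor, at 11.9, 13.5 and 11.3 FPKM. Tfrc was lowest in replicate 2. Nr3c1, the glucocorticoid receptor, averaged 8.96 ± 1.08 FPKM, and Pgr, the progesterone receptor, was listed at 0.

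Of 19 receptors for the laminin and collagen of Matrigel 10 were detected. Itgb1, the common beta subunit, was at 239.8, 361 and 216 FPKM, and its laminin-binding partners Itga3 and Itga7 at 113, 124 and 127 FPKM and at 41.9, 50.2 and 39.8 FPKM. Dag1, dystroglycan, was at 50.2, 41.5 and 41.1 FPKM. Itgb1 was highest in replicate 2, and Itga3 differed by 1.12-fold. The cells also transcribed matrix genes of their own. Of 22 collagen genes 14 were detected, with Col3a1, Col4a1 (103 ± 10.8 FPKM), Col4a2 (65.8 ± 15.2 FPKM) and Col18a1 (63.7 ± 25.8 FPKM) highest. Of 11 laminin chains 6 were detected, with Lamb1 (59.6 ± 11.8 FPKM), Lamc1 (50.1 ± 4.18 FPKM), Lama5 (35.1 ± 2.87 FPKM) and Lamb2 (12.4 ± 2.41 FPKM) highest. Lama1, the alpha chain of Matrigel laminin, averaged 0.00667 FPKM.

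Genes of the NOTCH pathway were detected in 7 of 15 cases. The receptor Notch2 was at 23.8, 30.9 and 16.7 FPKM, the DNA-binding effector Rbpj at 12.8, 19.1 and 22.5 FPKM, and the ligands Jag1 and Dll1 averaged 6.44 ± 2.61 FPKM and 4.36 ± 1.84 FPKM. The target Hey1 was at 0.58, 4.91 and 0.71 FPKM and, like Hes1, high in replicate 2, whereas Hes5 was listed at 0. Of 14 Hedgehog genes 7 were detected, with Gas1 (32.04, 30.1 and 26.1 FPKM) and the transducer Smo (20.99, 19.1 and 20.2 FPKM) above the rest. Sufu averaged 4.44 ± 0.499 and Gli3 3.53 ± 0.432 FPKM, the target Gli1 averaged 0.15 FPKM and Shh was listed at 0.

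Of 22 genes of BMP and TGF-beta signalling 18 were detected (81.8%, against 47.5% of protein-coding genes). The targets Id3 and Id1, inhibitors of bHLH factors, were at 64.8, 57.4 and 72.6 FPKM and at 21.7, 61.4 and 30.7 FPKM. Bmp1, a procollagen protease, was at 27.1, 43.1 and 20.5 FPKM and Tgfb3 at 13.6, 15.8 and 10.6 FPKM. Id1 and Bmp1 were highest in replicate 2, and 13 of the 18 detected members were, against 34.5% of all detected genes. Of 18 receptor tyrosine kinases 11 were detected. Axl, a receptor for Gas6, was the highest at 358, 419.8 and 354 FPKM, and Epha2 (32.9, 73.2 and 71.8 FPKM), Ddr2 (25.1, 23.8 and 24.4 FPKM) and Ddr1 (24.8, 26.5 and 17.7 FPKM) followed. Egfr averaged 8.997 ± 2.25 FPKM and Kit 0.0167 FPKM.

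All 24 interferon-stimulated genes were detected (median log2(mean FPKM + 0.1) of 6.05, against 2.81 over detected genes and -3.32 over all identifiers). Bst2, tetherin, which holds budding viruses at the cell surface, was at 1256, 981 and 893 FPKM. Isg15, a ubiquitin-like modifier, was at 1211, 676 and 724 FPKM, and Ifit3, an antiviral effector, at 502, 320.0 and 277 FPKM. Irf7, the factor that amplifies the interferon response, was at 155, 111 and 99.1 FPKM. Mx1, at the low end, averaged 11.1 ± 4.26 FPKM. Replicate 1 was highest in 23 of the 24 genes, Ifi27 (12.8, 31.5 and 21.4 FPKM) being the exception, while 33.8% of all detected genes were highest there. The list does not stand for every gene that interferon induces. Outside it, Ifitm3 and Ifitm2 were also highest in replicate 1. Ifi27l2a (847, 1072 and 673 FPKM), H2-D1 (669, 832 and 513 FPKM) and B2m were instead highest in replicate 2. The summed FPKM of the list was 4720.4 in replicate 1, 3266 in replicate 2 and 2970 in replicate 3. With no other group in view, the part of the transfection in these levels cannot be told apart.

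The promoters of these genes carry a known response element, and its letters were searched on both strands as GAAA, any 2 bases and GAAA, a motif chosen after these levels had been seen. Of the 24 genes 18 had a RefSeq promoter, and 12 of their 20 promoters held the motif (60%), against 3.07% of the promoters of detected genes and 3.36% of all. The element is part of what makes a gene interferon-stimulated, so the share describes the list and not these cells. Of the 10 highest genes of the list, 8 matched, and 7 of their windows are shown to let the shared letters be compared (GRCm38.p6). The motif is in capitals, in either orientation, on the strand that reads like the transcript.
Bst2 (chr8:71537583-71537612, minus strand): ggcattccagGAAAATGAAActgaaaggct
Isg15 (chr4:156200877-156200906, minus strand): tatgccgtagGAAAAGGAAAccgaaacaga
Ifit3 (chr19:34583363-34583392, plus strand): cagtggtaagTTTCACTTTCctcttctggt
Ifit1 (chr19:34640775-34640804, plus strand): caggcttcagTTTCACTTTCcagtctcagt
Gbp3 (chr3:142559989-142560018, plus strand): caggacacagTTTCAGTTTCtatttcccag
Gbp2 (chr3:142620594-142620623, plus strand): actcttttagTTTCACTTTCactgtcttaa
Cxcl10 (chr5:92349083-92349112, minus strand): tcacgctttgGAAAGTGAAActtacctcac
Ifit1 was at 167, 97.3 and 88.6 FPKM, Gbp3, a guanylate-binding protein, at 140.4, 112 and 77.7 FPKM and Gbp2 at 128, 121 and 74.98 FPKM. Cxcl10, a chemokine, averaged 94.8 ± 35.2 FPKM. The window of Ifit3b (117 ± 38.2 FPKM) had the same 30 bases as that of Ifit3, and how reads of these near copies were divided cannot be seen from FPKM.

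Sensors of double-stranded RNA and other nucleic acids were detected in 10 of 13 cases (76.9%, against 47.5% of protein-coding genes). Zbp1 was at 73.8, 75.5 and 38.5 FPKM, Dhx58, which encodes LGP2, at 60.8, 51.1 and 43.6 FPKM, Ddx58, which encodes RIG-I, at 46.2, 35.7 and 33.2 FPKM and Adar, an RNA-editing enzyme, at 41.3, 28.9 and 30.3 FPKM. Zbp1 was low in replicate 3. Tlr3 averaged 6.95 ± 3.19 FPKM, Tlr7 averaged 0.0267 FPKM and Tlr8 and Tlr9 were listed at 0. Genes of RNA interference, for microRNA processing and export as well as for silencing itself, were detected in 12 of 13 cases (92.3%). Prkra (15.5, 16.4 and 16.01 FPKM), Drosha (13.6, 10.7 and 13.8 FPKM), Xpo5 (11.4, 12.6 and 13.3 FPKM) and Ago1 (9.93, 8.88 and 9.61 FPKM) were highest. Ago2, the Argonaute that cuts targets, was at 5.59, 6.15 and 5.87 FPKM, and Dicer1 averaged 2.88 ± 0.316 FPKM. Ago4 averaged 0.213 FPKM.

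Genes of chaperone-mediated autophagy and the lysosome, the pathway the study went on to examine, were detected in 20 of 21 cases (95.2%). The share was 47.5% over protein-coding genes. The list had a median log2(mean FPKM + 0.1) of 5.65, against 2.81 over detected genes. Eef1a1 made up 49.2% ± 5.33 of its summed FPKM (SD, n = 3). Besides Eef1a1, the highest were the chaperone genes Hsp90ab1 (978, 893 and 1085 FPKM) and Hspa8 (437, 353 and 469 FPKM) and the protease Ctsd (408, 486 and 327 FPKM). Lamp1, a membrane protein of lysosomes, was at 286, 232 and 249 FPKM, and Lamp2, whose splice form LAMP2A is the receptor of the pathway, averaged 46.9 ± 7.95 FPKM, a value of the gene that does not show its splice forms. Sqstm1, which encodes p62, was at 236, 281 and 225 FPKM. Becn1 (8.14 ± 0.818 FPKM), Atg5 (10.2 ± 0.256 FPKM), Atg13 (6.59 ± 0.897 FPKM) and Atg7 (1.83 ± 0.251 FPKM) of macroautophagy were lower. The 1 member under the threshold was Gfap.

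In some gene families a single member carried most of the transcript. Vim made up 97.8% ± 0.563 of the summed FPKM of 15 intermediate filament genes, whose keratin members were under 0.05 FPKM. In others the transcript was divided among members. Actg1 (449.7, 660.1 and 590.1 FPKM) and Actb (427, 443 and 509 FPKM), the cytoplasmic actins, were of similar level. The alpha tubulins Tuba1b (945, 870.4 and 1014 FPKM) and Tuba1a (953, 616 and 1006 FPKM) and the beta tubulin Tubb5 (515, 403 and 557 FPKM) led their families, and the neuronal Tubb3 averaged 6.66 ± 2.56 FPKM. Tuba1a and Tubb5 were lowest in replicate 2.

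Of the classical cadherins, Cdh2, N-cadherin, was at 14.8, 25.3 and 18.6 FPKM and Cdh11, of mesenchyme, at 18.6, 16.6 and 12.1 FPKM, while Cdh1, E-cadherin, averaged 0.04 FPKM. Annexins were all detected (9 of 9), led by Anxa5 (587, 619 and 669.6 FPKM) and Anxa2 (438, 641 and 498 FPKM). Tmsb4x, a thymosin that binds actin monomers, was at 352, 849 and 396 FPKM and its relative Tmsb10 at 397, 364 and 425 FPKM. Tmsb4x was high in replicate 2 and Tmsb10 was not.

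Genes of glycolysis were abundant. Ldha, the muscle form of lactate dehydrogenase, was at 669, 584 and 766 FPKM, and Ldhb, the heart form, at 22.4, 10.7 and 17.6 FPKM. Pkm was at 872, 776 and 959.8 FPKM, Aldoa at 816, 762 and 947 FPKM and Eno1 at 431, 432 and 508 FPKM, whereas Pklr, the liver and red cell form of pyruvate kinase, was listed at 0. The glucose transporter Slc2a1 was at 47.2, 80.6 and 51.6 FPKM, Hk1 at 49.5, 50.1 and 39.8 FPKM and Hk2 at 21.3, 20.6 and 18.2 FPKM. Slc2a1 was highest in replicate 2. Metallothioneins Mt2 and Mt1 were at 355, 304 and 319.9 FPKM and at 93.5, 92.3 and 93.7 FPKM.

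The spread between libraries was small for most genes. The median CV of the 12078 detected genes was 14.2% (quartiles 8.27% and 24.0%), and 1531 genes (12.7%) differed at least 2-fold between their highest and lowest library. Of genes with means of 1 to 2 FPKM, 25.5% did so, and of genes at 100 FPKM or more, 8.82%. Replicate 2 was the library farthest from the others in 826 of the 1531 genes (54.0%), with 405 high and 421 low, replicate 1 in 336 and replicate 3 in 369. Without replicate 2, with genes chosen by the mean of the other libraries and the ratio taken of FPKM with nothing added, 534 genes differed 2-fold. For a given gene the ratio cannot grow with fewer libraries, so this count is lower in part by construction. The most even gene at 10 FPKM or more was Ywhaz, which encodes 14-3-3 zeta and is used as a reference gene, at 70.1, 69.7 and 69.8 FPKM, a CV of 0.253%. Copb1, a coatomer subunit (39.6, 39.8 and 39.8 FPKM), and Katna1, the katanin ATPase (17.7, 17.7 and 17.6 FPKM), were nearly as even.

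The 15 largest ratios at 10 FPKM or more fell into 2 kinds. Of these, 10 belonged to pseudogenes, predicted genes and a ribosomal protein gene, whose reads can be divided among copies or overlapping annotations. Gm45717 was at 0, 352 and 0.87 FPKM, and Rpl29 at 7.66, 5.47 and 227 FPKM. Gm49909 (0.85, 0.15 and 30.4 FPKM) and Gm14036 (2.49, 1.32 and 46.6 FPKM) were high in replicate 3, and Rpl27-ps3 (86.5, 4.03 and 6.87 FPKM) in replicate 1. 2210409E12Rik, Gm12435, Gm14150, Rpl35a-ps3 and Atp6v0c-ps2 were low in 1 library, with means between 11.4 and 108 FPKM. Pseudogenes as a class differed 2-fold in 25.1% of 1208 detected cases, and protein-coding genes in 10.5% of 10410.

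The other 5 were single protein-coding genes in which replicate 2 stood apart. Klf2, a zinc finger factor, was at 2.49, 39.4 and 4.19 FPKM, Pmepa1, a TGF-beta target, at 3.47, 33.7 and 2.21 FPKM and Crabp2 at 9.19, 75.2 and 5.27 FPKM, each high in replicate 2. Fst, follistatin, which binds activin, was at 15.1, 3.59 and 45.5 FPKM, and Ntn1, the guidance protein netrin-1, at 43.4, 3.84 and 33.3 FPKM, both low in replicate 2. Further genes high in replicate 2, chosen after their values were seen, were the stress protein Nupr1 (209.6, 1229.9 and 231 FPKM), the aldehyde dehydrogenase Aldh3a1 (414, 1538 and 329 FPKM), the water channel Aqp1 (15.2, 87.3 and 8.6 FPKM), the cytokine Lif (4.94, 32.3 and 11.4 FPKM) and the protease Plau (6.55, 37.8 and 8.27 FPKM).

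Crabp2 led to a list of 14 genes of retinoid binding, synthesis and breakdown, assembled after these values had been seen and therefore a description only. Of these, 10 were detected, and 8 of the 10 were highest in replicate 2, against 34.5% of all detected genes. Dhrs3, which turns retinaldehyde back to retinol, was at 27.5, 89.7 and 13.1 FPKM. Stra6, the retinol uptake receptor, was at 0.38, 16.9 and 0.18 FPKM and Cyp26b1, which breaks retinoic acid down, at 1.11, 23.6 and 0.49 FPKM. In both, the values of the other libraries average under the threshold. Crabp1 was instead even, and the synthesis gene Aldh1a1 was at 2.87, 1.45 and 2.33 FPKM, lowest in replicate 2.

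**Figure D5:**
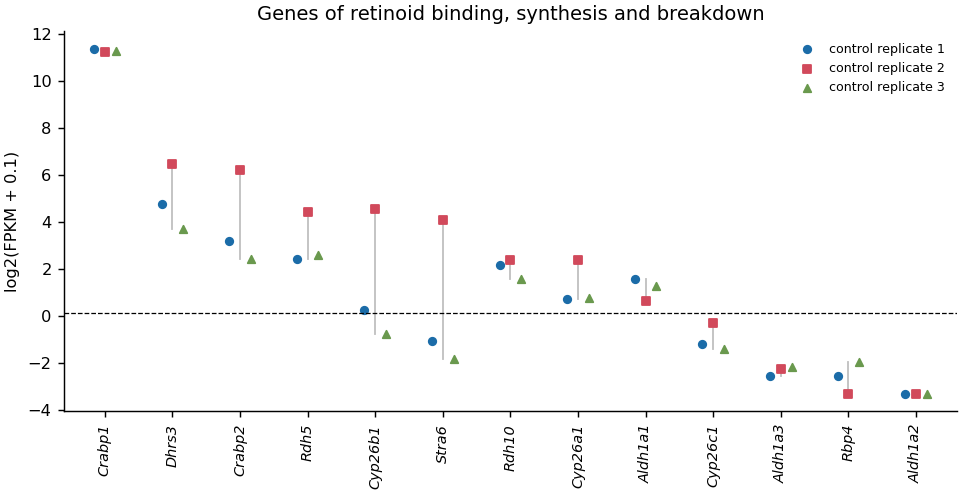
log2(FPKM + 0.1) of 13 of the retinoid genes in the 3 control libraries (one point per library, grey line from lowest to highest, dashed line at 1 FPKM). Control replicate 2 lies above the others in Dhrs3, Crabp2, Rdh5, Cyp26b1, Stra6, Rdh10 and Cyp26a1, and Crabp1 is at the same height in all 3.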

How the data were processed

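RNA of the control cells was sequenced as poly(A) libraries with strand marking. The authors deposited 1 table of FPKM per gene and library, rounded to 2 decimals. Per the submitters' processing notes the tools were StringTie 1.3.4d, HISAT2 2.0.4 and cutadapt 1.9, and the build given there is a human one, hg18, although the identifiers are those of mouse genes. Whole reads could not be recovered from the low values, so depth is unknown and no count model was run. The 3 libraries with the siRNA against Ifitm3 were not used.

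Means, SDs, CVs and shares over the 3 control libraries were computed with Python 3.11.15, pandas 2.3.3 and NumPy 2.4.6, and figures with matplotlib 3.10.9. Log values are log2(FPKM + 0.1). No group was compared with another and no test was run. Annotation classes and positions came from GENCODE (GRCm38), which held 99.5% of the identifiers, and promoters from RefSeq (GRCm38.p6). A symbol with several identifiers was given the one with the highest mean. The script for the spread was tested on simulated data with planted shifts and less noise than these libraries have. That checks the computation and not how many genes noise alone takes to 2-fold.

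The members of the 74 gene lists, and the lists, were chosen with earlier results of these data known, and 1 further list, of retinoid genes, after seeing these values. The text names the 25 highest identifiers, the 4 highest and the defining members of each identity list, the 4 highest of other lists or all of lists of 8 or fewer, the 3 nearest the threshold on each side, the 15 largest ratios and Ifitm3. Other members and genes named beside these were chosen after their values were seen, and some members are not reported here. Alternatives were other thresholds, scalings and pseudocounts and leaving out each library.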

Additional observations from a re-analysis of the deposited data

How the results depend on the processing

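The number of genes detected was 10398 at a mean of at least 2 FPKM, 13476 at 0.5 FPKM, 14198 after rescaling each library to the same round sum and 12033 to 12063 when 1 library was left out, beside 12078. Without genes of the mitochondrial genome the 100 highest identifiers held 32.8% of the summed FPKM, beside 38.4%. For the spread between libraries, the genes 2-fold apart numbered 1531, against 2431 after that rescaling, which includes the added low genes. Median-ratio scaling moved the number by no more than 1.5 times. It was 651 among genes of at least 5 FPKM, and between 534 (without replicate 2) and 1019 (without replicate 1) with 1 library left out. A highest-to-lowest ratio over fewer libraries cannot grow, so the last counts are lower in part by construction. Of the Hox genes, 8 were detected at 0.5 FPKM and 2 at 2 FPKM, beside 4. Without ribosomal protein genes, C and 4 pyrimidines at the start fell to 2.31% of the promoters of the highest genes, beside 8.06%. The number of detected members moved by more than 1.5 times in 6 of 74 lists at 0.5 FPKM, in 7 at 2 FPKM, in 2 without replicate 1 and in 2 without replicate 2. List medians moved in 55 of 74 lists with a pseudocount of 1, which lifts the floor. No paired analysis was possible because the control libraries were compared with no other group. Precision is limited by 3 libraries, unknown read depth, values rounded to 2 decimals and possibly technical replicates. The causes of the differences between libraries were not tested.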

Other observations

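Among long non-coding RNAs, 2410006H16Rik (118, 109 and 135 FPKM) and the small nucleolar RNA host gene Snhg8 (45.4, 31.4 and 57.4 FPKM) averaged above Sox2 (39.2 FPKM). Imprinted genes were detected in 4 of 14 cases, with Peg10 at 3.62, 3.23 and 7.84 FPKM, H19 at 2.86, 4.25 and 2.4 FPKM, Snrpn at 2.46, 2.47 and 2.43 FPKM and Mest at 2, 1.13 and 1.87 FPKM, while Igf2 was listed at 0. Snrpn was even in the 3 libraries.

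Of 15 genes commonly used as references for expression, all were detected. Gapdh, the glycolytic enzyme most often used so, was at 42.4, 73.7 and 44.3 FPKM, a level well under that of its neighbours in the pathway Pgk1 (759, 739 and 919 FPKM) and Aldoa (816, 762 and 947 FPKM). Gapdh has many processed pseudogenes, and how reads were divided among copies cannot be seen from FPKM.

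The listed interferon-stimulated genes and the listed ERK targets both set replicate 1 apart, the first as the highest and the second as the lowest library. Their summed FPKM was 4720.4 and 138 in replicate 1, 3266 and 382 in replicate 2, and 2970 and 312 in replicate 3. With 3 libraries this is a description of the libraries.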
